A study of Mus musculus with 12 samples.

Results

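Nerves that reach visceral muscle depend on growth factors made in the tissues they supply, and 9 genes of these factors and of their receptors were examined in colon and urinary bladder of mice. The 9 genes were chosen by name, with their levels in these libraries already known, from the 54532 genes listed for each library. They are the ligands Bdnf, Ntf3, Gdnf, Nrtn, and Artn and the receptors Ntrk2, Ntrk3, Ngfr, and Gfra1. All values of the 9 genes across tissue and genotype are therefore descriptions. No p-value is given for any of them, and the counts of members past a threshold are set beside the share of all genes and support nothing.

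RNA came from 9 male mice aged 5 to 7 weeks, with floxed Yap1 and Wwtr1 (the gene of TAZ) from a line of mixed background. The Ctrl mice carried no Cre, and the Y/T KO mice carried a tamoxifen-inducible Cre driven by the promoter of Myh11, the smooth muscle myosin heavy chain. This transgene lies on the Y chromosome, so only males could be used, and it is meant to recombine smooth muscle cells while the other cells of the organ keep both genes. Every mouse of either genotype received 1 mg of tamoxifen daily in 5 injections, and tissue was taken 7 days after the first of them. Each of the 4 groups held 3 libraries, 1 mouse per library. Ctrl colon came from mice 788, 786, and 787, Y/T KO colon from 759, 783, and 780, Ctrl bladder from 784, 785, and 788, and Y/T KO bladder from 782, 783, and 780, so that 3 mice gave both organs. Values per library are given in that order.

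The neurotrophins act on Trk receptor tyrosine kinases, each with a preferred ligand, and all of them also bind Ngfr, the p75 neurotrophin receptor. BDNF is the main ligand of TrkB (Ntrk2), and the product of Ntf3 is the main ligand of TrkC (Ntrk3). Ligands of the GDNF family signal through the shared kinase Ret, which they reach by way of a membrane-anchored co-receptor: GDNF prefers Gfra1, neurturin (Nrtn) prefers Gfra2, and artemin (Artn) prefers Gfra3. In the developing gut GDNF draws in and expands the precursors of the enteric nervous system, and in the bladder neurotrophins support the sensory and autonomic fibers of the wall. YAP and TAZ bind no DNA themselves and act through TEAD transcription factors.

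Expression was given by the authors as TPM, each gene's share of a library's transcripts after division by length, scaled to the same total in every library, so levels of different genes in TPM can be set side by side. Aligned sequence ran from 2.80 to 3.94 gigabases per library, with 22800 to 24104 genes above 0. Fold changes were fitted with limma on log2(TPM + 0.1) after rescaling of the libraries, a scale that understates the change of genes near 0. With 3 mice against 3, an exact permutation test cannot go below p = 0.10. Yap1 was lower in Y/T KO bladder by 0.54 on the log2 scale (limma adjusted p = 0.0625) and by 0.17 in Y/T KO colon (limma adjusted p = 0.697), and Wwtr1 was not lower in either organ (log2 0.24 and 0.18). The genotype of each library is therefore taken from its label. RNA of the whole organ includes the cells that are meant to keep both genes. In colon the authors reported less YAP and TAZ protein in Y/T KO mice, by Western blot and by staining of the muscle layers. Protein is a different measure from RNA, and the authors' experiments were by default made on later days than these libraries. The 8 urothelial marker genes summed to 4509 to 5912 TPM in bladder and 505 to 685 TPM in colon, and the 8 colon epithelial genes to 3285 to 5059 TPM in colon and 306 to 381 TPM in bladder. Other tissue was present as well: 8 pancreatic acinar genes summed to 7.78 to 143 TPM in the Ctrl colons and to 0.344 to 1.08 TPM in the Y/T KO colons. The 10 smooth muscle genes summed to 7744 to 8417 TPM in the Ctrl colons and 5043 to 5942 TPM in the Y/T KO colons, and to 36540 to 47070 TPM in the Ctrl bladders and 17660 to 32200 TPM in the Y/T KO bladders. In such bulk samples fewer cells of a type and less RNA per cell cannot be told apart.

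Upstream sequence was examined for the 3 genes that were lower in every Y/T KO colon library than in any Ctrl colon library, Bdnf, Gdnf, and Gfra1. RefSeq promoters on GRCm38.p6, from 250 bases before to 50 bases after a transcription start, were matched by symbol for 8 of the 9 genes, 16 promoters in all, 7 of them of alternative starts of Bdnf. Ntrk3 was not matched. The letters GGAATG, the core bound by TEAD factors, were searched on both strands and are in capitals below, where CATTCC is the same core read on the other strand.
Bdnf promoter 2 (chr2:109676782-109677081, plus strand): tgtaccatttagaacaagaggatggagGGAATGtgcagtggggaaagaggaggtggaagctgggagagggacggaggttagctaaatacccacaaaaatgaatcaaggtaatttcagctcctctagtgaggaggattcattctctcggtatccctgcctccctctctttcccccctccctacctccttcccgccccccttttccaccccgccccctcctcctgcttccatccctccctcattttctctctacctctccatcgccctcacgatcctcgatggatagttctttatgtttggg
Bdnf promoter 7 (chr2:109722671-109722970, plus strand): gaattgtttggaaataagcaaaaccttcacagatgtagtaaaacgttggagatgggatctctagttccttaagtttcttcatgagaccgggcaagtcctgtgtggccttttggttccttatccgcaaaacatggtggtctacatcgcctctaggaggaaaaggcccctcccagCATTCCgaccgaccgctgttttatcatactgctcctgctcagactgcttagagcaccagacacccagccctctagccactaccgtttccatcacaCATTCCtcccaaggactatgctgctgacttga
Gfra1 (chr19:58455349-58455648, minus strand): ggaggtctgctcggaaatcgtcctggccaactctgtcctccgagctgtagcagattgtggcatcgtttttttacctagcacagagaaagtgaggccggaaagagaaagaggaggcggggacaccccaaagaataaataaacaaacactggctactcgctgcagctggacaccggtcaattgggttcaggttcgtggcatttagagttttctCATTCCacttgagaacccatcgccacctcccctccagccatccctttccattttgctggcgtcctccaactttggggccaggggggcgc
Gdnf promoter 1 (chr15:7809798-7810097, plus strand): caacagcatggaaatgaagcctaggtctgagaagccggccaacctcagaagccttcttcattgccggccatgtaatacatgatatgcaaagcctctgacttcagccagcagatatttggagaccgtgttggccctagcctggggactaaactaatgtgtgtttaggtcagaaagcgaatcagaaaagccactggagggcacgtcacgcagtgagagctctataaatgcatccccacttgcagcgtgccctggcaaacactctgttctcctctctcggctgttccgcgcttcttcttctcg
The core began 223 bases before the start in Bdnf promoter 2, 77 bases before and again at base 19 after the start in Bdnf promoter 7, and 39 bases before the start of Gfra1. Neither of the 2 Gdnf promoters held it, and no promoter of Ntf3, Nrtn, Artn, Ntrk2, or Ngfr did. In total 3 of the 16 promoters (18.8%) held the core, beside 14.7% of 32851 RefSeq promoters of the same length. The cAMP response element TGACGTCA (1.79% of all promoters) and the CArG box of serum response factor (1.63% of all promoters) were in 0 of the 16, so no motif overlapped another. A match of letters is a description and not a site of binding.

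Bdnf was the member with the largest difference between genotypes, and in the same direction in both organs. The gene (ENSMUSG00000048482) spans 52.3 kb of the plus strand of chromosome 2, from 109674700 to 109727007 (GRCm38), and the annotation lists 11 transcripts for it, all coding. In Ctrl colon Bdnf stood at 1.53, 0.735, and 1.52 TPM, and in the Y/T KO colons at 0.105, 0.259, and 0.318 TPM. All 3 Y/T KO values lay below the lowest Ctrl value, and the means were 1.26 ± 0.458 and 0.228 ± 0.110 TPM (SD, n = 3 each). The fitted difference was -2.03 on the log2 scale (SE 0.50). It was -0.85 with a pseudocount of 1 TPM, and Bdnf fell below the filter when any Ctrl colon was left out. In the Ctrl bladders Bdnf stood at 2.26, 28.8, and 3.56 TPM, and in Y/T KO bladder at 0.810, 1.25, and 0.803 TPM. The groups again did not overlap, with a fitted log2 difference of -2.60 (SE 0.92).

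The Ctrl bladder library of mouse 785 stood apart from the others. Its Bdnf level was 9.90 times the mean of the other Ctrl bladder libraries, and without it the Ctrl mean fell to 2.91 TPM (n = 2), which is 3.04 times the Y/T KO mean. The fitted log2 difference in bladder was then -1.50. Some known target genes of YAP and TAZ, though not all on the list, were high in the same library. Cyr61, a secreted matricellular protein, was at 658 TPM there and at 7.28 and 93.1 TPM in the other Ctrl bladders. Ctgf, of the same family, was at 769 TPM against 28.0 and 64.0 TPM. Ankrd1, a nuclear ankyrin-repeat protein, was at 125 TPM against 9.55 and 6.35 TPM. Amotl1, also on the list, was at 30.9 to 35.5 TPM over all the Ctrl bladders and 33.8 to 43.4 TPM in the Y/T KO bladders. The 8 target genes on the list summed to 1945 TPM in this library and to 264 and 453 TPM in the other Ctrl bladders, and to 293 to 480 TPM in the Y/T KO bladders. Most of this library's sum came from Cyr61 and Ctgf. The part of this library's state in the Bdnf difference was not tested beyond leaving it out.

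The listed coverage of Bdnf, the mean number of reads over each base, ran from 0.0174 to 0.211 in colon and reached 3.30 in the bladder of mouse 785. For Bdnf, Ntrk2, and Ntrk3 this column divided by FPKM was 7.96 to 23.5 times lower than the usual ratio of the library, whereas for Gdnf, Ngfr, and Nrtn, with 1 annotated transcript each, it equalled that ratio. Coverage is therefore not compared between genes, and the depth behind these genes is not known from it. TPM is given per gene, so the levels of single Bdnf promoters, or of the truncated and full-length forms of Ntrk2 and Ntrk3, were not resolved. The antisense gene Gm45346, which overlaps the start of Bdnf, was listed at 0 in every library.

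**Figure D1:**
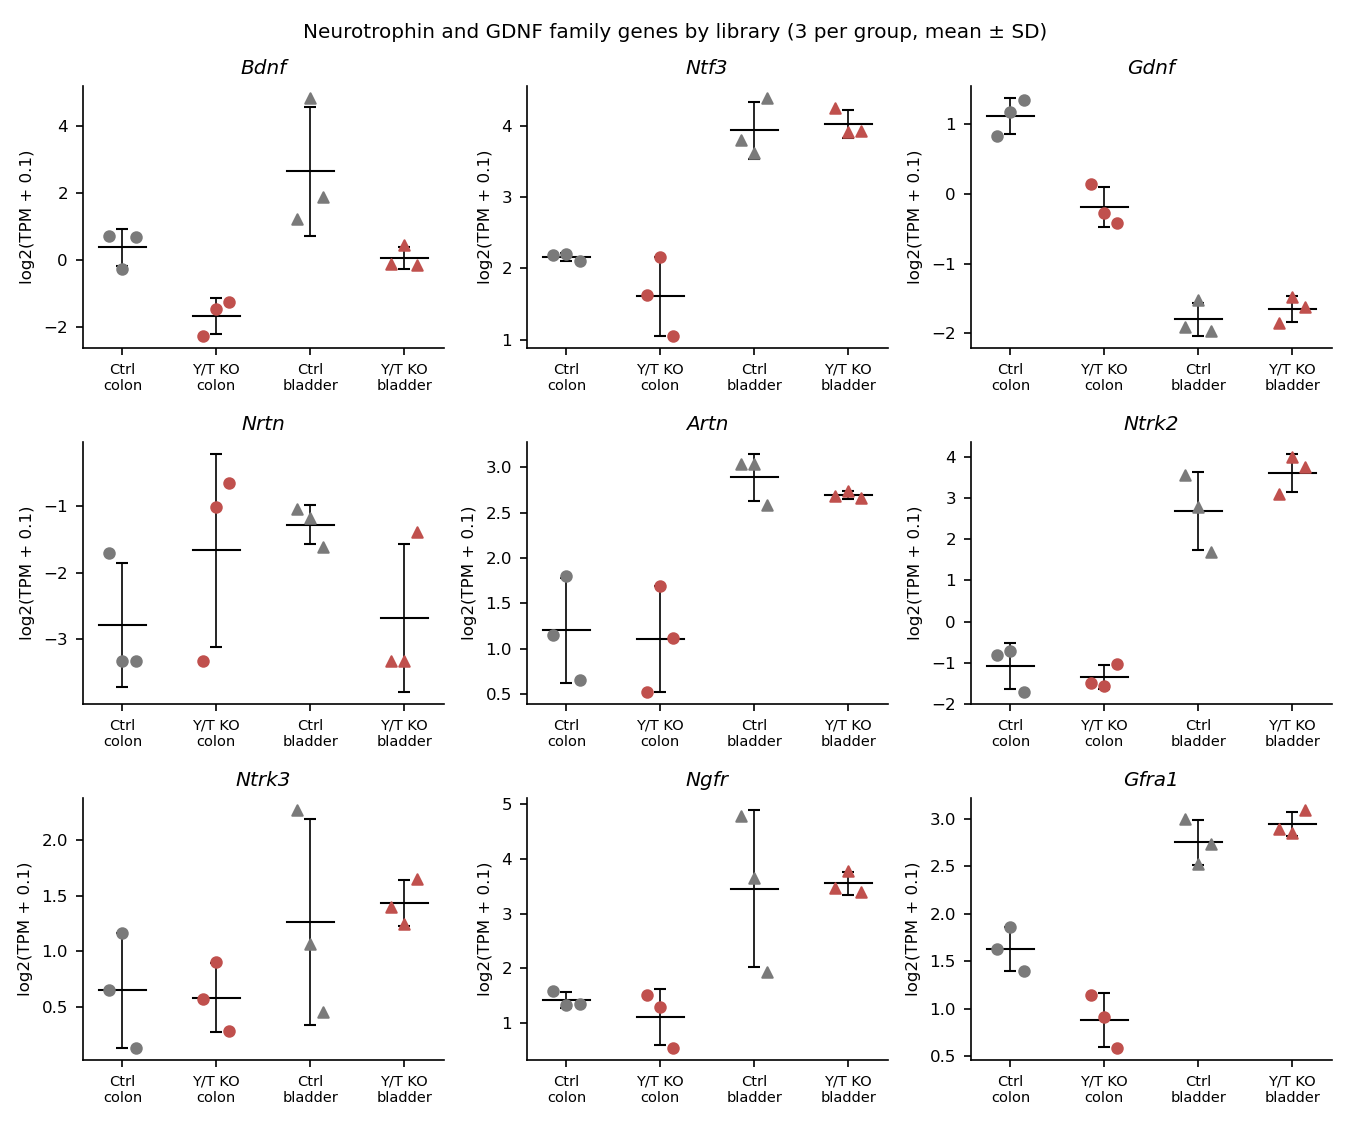
Level of each of the 9 genes by library, as log2(TPM + 0.1), with 3 libraries per group (circles, colon; triangles, bladder; gray, Ctrl; red, Y/T KO), the mean as a bar, and the SD as whiskers. Bdnf was lower in every Y/T KO library than in any Ctrl library of its organ, and Gdnf and Gfra1 were so in colon alone among the libraries shown.

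Ntf3, the other neurotrophin among the ligands, had the highest mean of the 9 genes in each of the 4 groups. It lies on the minus strand of chromosome 6, from 126101412 to 126166910. Ntf3 was at 4.46, 4.49, and 4.19 TPM in the Ctrl colons and at 2.98, 4.37, and 1.97 TPM in the Y/T KO colons. The genotypes overlapped through the Y/T KO colon of mouse 783, and the log2 difference of -0.52 (SE 0.30) ran from -0.78 without that library to -0.25 without that of mouse 780. In bladder Ntf3 was at 13.8, 12.2, and 21.0 TPM in the Ctrl group and 19.0, 15.0, and 15.2 TPM in the Y/T KO group, with groups that overlapped and a log2 difference of 0.09 (SE 0.20). In Ctrl colon its level was above that of every other member with no overlap, and in Ctrl bladder it overlapped those of Ngfr and Bdnf. Ngfr was above it in mice 784 and 785, and Bdnf in mouse 785.

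Ntf5, a further ligand of TrkB, was on the pathway list and not among the members. It was under the minimum in colon and had a log2 difference of 0.56 (SE 0.68, limma adjusted p = 0.736) in bladder.

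Gdnf separated the genotypes in colon and was barely expressed in bladder. The gene (ENSMUSG00000022144) lies on the plus strand of chromosome 15, from 7810846 to 7837575, and has 1 annotated transcript. Gdnf stood at 1.68, 2.16, and 2.44 TPM in the Ctrl colons and at 1.00, 0.724, and 0.647 TPM in the Y/T KO colons. Every Y/T KO colon value was below every Ctrl value, the means were 2.09 ± 0.384 and 0.791 ± 0.186 TPM (SD, n = 3 each), and the log2 difference was -1.27 (SE 0.31). Leaving out each colon library in turn kept this difference between -1.43 and -1.12. In bladder Gdnf stood at 0.166, 0.247, and 0.155 TPM in the Ctrl group and 0.176, 0.257, and 0.225 TPM in the Y/T KO group. No bladder library reached the minimum of 0.5 TPM, so Gdnf was not tested there, and the genotypes overlapped. Adipocyte genes were also lower in part of the colon libraries: 4 of 4 tested were below 0 (median log2 -1.39). The 5 on the list summed to 42.4, 50.2, and 9.41 TPM in the Ctrl colons of mice 788, 786, and 787. In the Y/T KO colons they summed to 10.6 to 12.7 TPM. The part of fat content in the colon values of Bdnf, Gdnf, and Gfra1 was not tested.

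Artn and Nrtn overlapped between genotypes in colon, unlike Gdnf. Artn (minus strand of chromosome 4, from 117926162 to 117929763), whose product guides sympathetic and sensory fibers, stood at 2.13, 3.38, and 1.47 TPM in the Ctrl colons and 1.34, 3.13, and 2.07 TPM in the Y/T KO colons, with overlapping groups and a log2 difference of -0.06 (SE 0.38). This value took either sign as libraries were left out, from -0.34 to 0.24. In bladder Artn stood at 8.13, 8.12, and 5.92 TPM in the Ctrl group and 6.33, 6.60, and 6.22 TPM in the Y/T KO group, also overlapping (log2 -0.20, SE 0.19). Nrtn (minus strand of chromosome 17, from 56751325 to 56757530) was at 0.539 TPM or less in all 12 libraries and was listed at 0 in 5 of them, 2 Ctrl colons, 1 Y/T KO colon, and 2 Y/T KO bladders, so it was tested in neither organ. Pspn, the gene of persephin and the last ligand of the family, was at 0.215 TPM or less throughout.

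Relative abundance of the 5 ligands differed between organs. Summed TPM of Bdnf, Ntf3, Gdnf, Nrtn, and Artn was 9.63 to 10.8 in Ctrl colon and 5.42 to 8.87 in Y/T KO colon, with no overlap. In bladder it was 24.8 to 49.7 in Ctrl and 22.7 to 26.3 in Y/T KO. Gdnf made up 16.8 to 25.4% of this sum in Ctrl colon and 0.497 to 0.670% in Ctrl bladder. The Bdnf share was 6.83 to 15.8% in Ctrl colon and 1.94 to 5.74% in Y/T KO colon. In bladder it was 9.11 to 57.9% in Ctrl, the highest in mouse 785, and 3.07 to 5.43% in Y/T KO.

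Among the receptors of the member list Gfra1, the co-receptor that GDNF prefers, separated the genotypes in colon. It lies on the minus strand of chromosome 19, from 58235604 to 58455909. Gfra2 and Gfra3, of the pathway list, did not overlap between genotypes in colon either, with Gfra2 lower and Gfra3 higher in Y/T KO. Gfra1 stood at 2.99, 3.54, and 2.54 TPM in the Ctrl colons and 2.12, 1.79, and 1.40 TPM in the Y/T KO colons, with no overlap and a log2 difference of -0.71 (SE 0.26). In bladder it stood at 7.91, 5.65, and 6.57 TPM in the Ctrl group and 7.32, 7.13, and 8.44 TPM in the Y/T KO group, with overlap and a log2 difference of 0.19 (SE 0.18). Ret, the kinase that Gfra1 presents GDNF to, was on the pathway list. Its level was 2.85 to 3.64 TPM in the Ctrl colons and 1.54 to 2.99 TPM in the Y/T KO colons (log2 -0.42, SE 0.29, limma adjusted p = 0.659). Ret is made by enteric neurons, and 10 of 16 neuron genes tested in colon were below 0 with a median log2 difference of -0.28. The summed level of the 18 neuron genes listed overlapped, at 212.4 to 267.5 TPM in the Ctrl colons and 209.0 to 337.6 TPM in the Y/T KO colons. The part of neuronal content in the Gfra1 difference was not tested.

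Ngfr, Ntrk2, and Ntrk3 overlapped between genotypes in both organs. In colon Ngfr stood at 2.90, 2.40, and 2.44 TPM in the Ctrl group and 2.76, 2.35, and 1.36 TPM in the Y/T KO group (log2 -0.27, SE 0.31). Ntrk3 stood at 1.47, 2.14, and 0.994 TPM in the Ctrl colons and 1.38, 1.77, and 1.11 TPM in the Y/T KO colons (log2 -0.03, SE 0.33). Ntrk2 was at 0.204 to 0.510 TPM in the Ctrl colons and 0.238 to 0.392 TPM in the Y/T KO colons, under the minimum for a test. In Ctrl colon every Ntrk2 value lay below every Bdnf value, its main ligand.

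In bladder Ngfr and Ntrk3 varied more among the Ctrl mice than their means differed between genotypes. Ngfr lies on the minus strand of chromosome 11, from 95568818 to 95587735, and Ntrk3 on that of chromosome 7, from 78175959 to 78738012. Ngfr stood at 27.5, 12.6, and 3.72 TPM in the Ctrl group and 11.0, 13.7, and 10.5 TPM in the Y/T KO bladders, and its log2 difference of 0.09 (SE 0.71) moved from -0.69 without Ctrl mouse 788 to 0.78 without Ctrl mouse 784. Ntrk3 stood at 4.72, 1.99, and 1.27 TPM in the Ctrl group and 2.54, 2.27, and 3.04 TPM in the Y/T KO group (log2 0.17, SE 0.48). The high value was again in mouse 784 and the low value in mouse 788.

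Some markers of nerve varied in the same way, but not all. Dbh, the enzyme that makes noradrenaline, was at 18.7, 7.75, and 0.312 TPM in the Ctrl bladders and 4.23, 7.79, and 5.58 TPM in the Y/T KO bladders. Th, which starts catecholamine synthesis, was at 10.8 TPM in mouse 784 and 0.197 TPM in mouse 788. Ret ran from 14.6 TPM in mouse 784 to 1.26 TPM in mouse 788, with Y/T KO bladders at 7.47 to 9.28 TPM (log2 0.59, SE 0.87, limma adjusted p = 0.786). Over the 18 neuron genes the summed level was 374 to 683 TPM in the Ctrl bladders, with Chat at 0 in mouse 788 and Tac1 at 0 in mouse 785, and 563 to 676 TPM in the Y/T KO bladders. Uchl1, a neuron gene that made up a large part of this sum, varied little among the Ctrl bladders. It was at 333 to 389 TPM there and at 428 to 546 TPM in the Y/T KO bladders. Of 16 neuron genes tested in bladder, 15 were above 0, with a median log2 difference of 0.44. Glial genes differed less between these mice: the 12 of them summed to 178 to 228 TPM in the Ctrl bladders and 198 to 220 TPM in the Y/T KO bladders, with Foxd3 at 0 in every library. The part of nerve content in the Ngfr and Ntrk3 values was not tested.

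Ntrk2, on the plus strand of chromosome 13 from 58806569 to 59133970, had the largest positive difference of the 7 members tested in bladder. It stood at 11.8, 6.84, and 3.12 TPM in the Ctrl group and 8.47, 15.9, and 13.4 TPM in the Y/T KO bladders. The groups overlapped, and the log2 difference of 0.93 (SE 0.52) ran from 0.41 without Ctrl mouse 788 to 1.40 without Ctrl mouse 784. Adipocyte genes were high and low in the same mice in part. Adipoq, the fat cell hormone adiponectin, was at 212, 94.8, and 46.9 TPM in the Ctrl bladders and at 154, 276, and 202 TPM in the Y/T KO bladders. All 5 adipocyte genes were above 0 in the bladder comparison, with a median log2 difference of 0.99, and they summed to 112 to 507 TPM in the Ctrl group and 315 to 613 TPM in the Y/T KO bladders. The part of fat content in the Ntrk2 values was not tested.

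**Figure D2:**
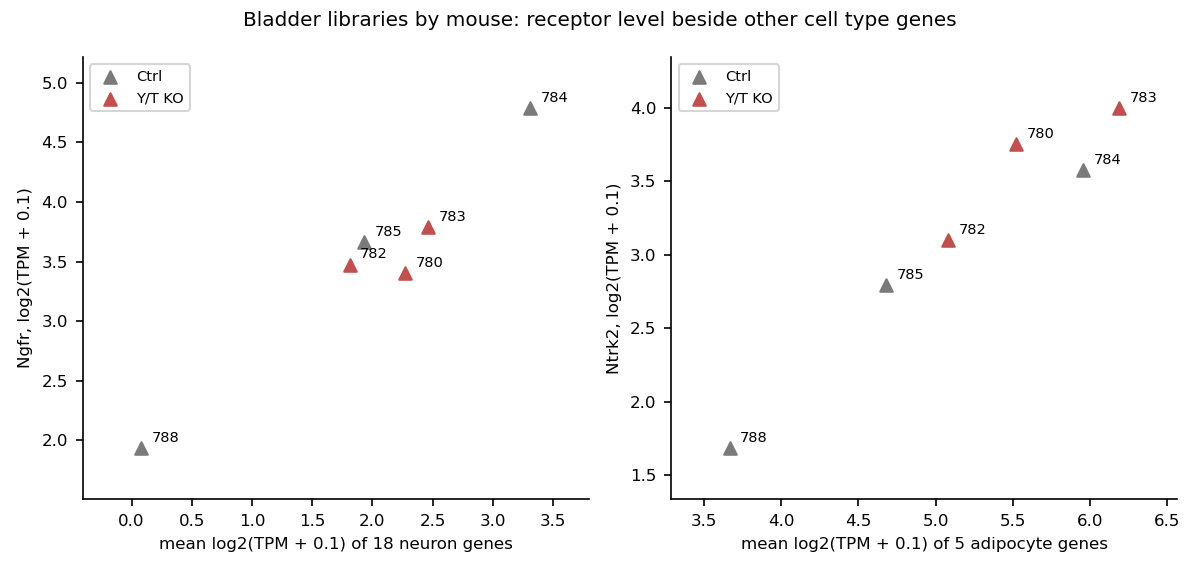
Left, Ngfr against the mean of 18 neuron genes, and right, Ntrk2 against the mean of 5 adipocyte genes, both as log2(TPM + 0.1), in the 6 bladder libraries (gray, Ctrl; red, Y/T KO; numbers, mice). Mouse 788 was lowest on both axes of both plots, and mouse 784 was highest on both axes of the left plot, at 27.5 TPM of Ngfr.

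Counted over the members, 7 of the 9 passed the filter of at least 0.5 TPM in 3 libraries in colon (all but Nrtn and Ntrk2) and 7 in bladder (all but Gdnf and Nrtn). Bdnf passed in colon through the Ctrl libraries alone, since 0 of the 3 Y/T KO libraries reached 0.5 TPM. In colon 0 of 7 were called by limma in either direction at an adjusted p under 0.05, where 0.0800% of 17500 genes were called lower and 0.0571% higher. When p was left unadjusted (under 0.05) it was 3 lower and 0 higher, beside 4.59% of all genes lower and 5.14% higher. In bladder 0 of 7 were called by limma, where 0.219% of 18237 genes were called lower and 0.0823% higher. Unadjusted it was 1 lower and 0 higher, beside 8.20% of all genes lower and 6.64% higher. Without overlap between genotypes, in either direction, were 3 of the 7 in colon, all of them lower in Y/T KO, beside 15.8% of all genes tested there. In bladder it was 1 of the 7, also lower, beside 20.4% of all genes tested. The median log2 difference of the members tested was -0.52 in colon and 0.09 in bladder, and that of all genes tested was 0.01 and 0.00. Since the members were chosen on these values, the counts are a description.

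The difference between genotypes was compared between organs as the interaction of the 2. For Gdnf it was -1.45 (SE 0.45) on the log2 scale, which rests on bladder values near 0, for Gfra1 -0.93 (SE 0.30), and for Bdnf 0.51 (SE 1.08), where a negative value means a more negative difference in colon. The Bdnf value changed sign to -0.58 without Ctrl bladder 785. By limma 0 of 8 members were called, where 0.0607% of 19773 genes were. When p was left unadjusted (under 0.05) it was 2 below 0 and 0 above, beside 5.45% and 6.43% of all genes.

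**Figure D3:**
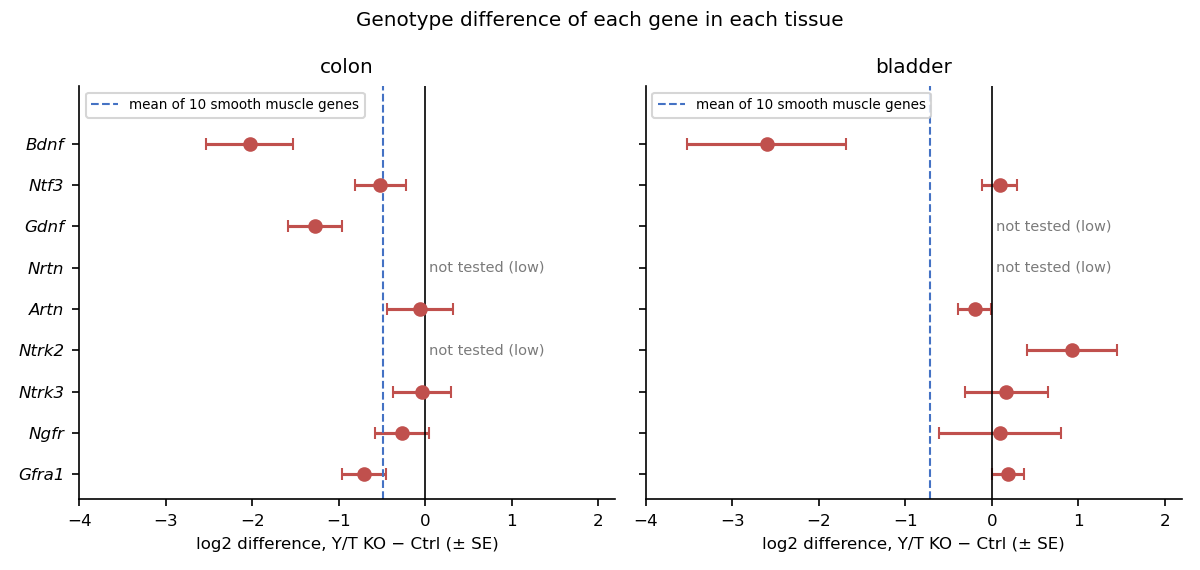
Fitted log2 difference, Y/T KO minus Ctrl, of each of the 9 genes in colon (left) and bladder (right), with the SE as whiskers and the mean difference of 10 smooth muscle genes as a dashed line at -0.49 and -0.71. The largest negative values were those of Bdnf (-2.03 and -2.60), and genes marked as not tested were below the minimum level.

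Smooth muscle genes were lower on average in the same libraries, so the members were also set against them. With DESeq2, a different test, the authors reported Acta2, Actg2, and Tagln as lower in Y/T KO in both organs. The 10 smooth muscle genes had a mean log2 difference of -0.49 in colon, from -0.98 to -0.10, and of -0.71 in bladder, from -1.16 to -0.19. By limma 0 of the 10 were called in either organ, with 6 lower in colon and 6 lower in bladder when p was left unadjusted, beside 4.59% and 8.20% of all genes. Relative to this mean, a comparison chosen after seeing the data, Bdnf stood at -1.54 and Gdnf at -0.78 in colon, whereas Gfra1 stood at -0.22 and Ntf3 at -0.03. Artn, Ngfr, and Ntrk3 were then above 0 in colon (0.43, 0.22, and 0.46). In bladder Bdnf stood at -1.89 and the 6 other members tested lay above 0, from 0.51 for Artn to 1.64 for Ntrk2.

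Levels in Ctrl mice differed widely between organs. Ctrl bladder had higher levels of Ntf3, Artn, Ngfr, Ntrk2, Gfra1, and Bdnf than Ctrl colon, and Ctrl colon had higher Gdnf, each without overlap of the 3 libraries per organ. Gdnf was higher in colon by 3.12 on the log2 scale (SE 0.32), with TPM of 1.68 to 2.44 in colon and 0.155 to 0.247 in bladder. With a pseudocount of 1 TPM it was 1.47, and that of Ntrk2 -2.28. Ntrk2 was lower in colon by the largest margin, -3.54 (SE 0.48), followed by Bdnf at -2.02 (SE 0.77), Ngfr at -1.79 (SE 0.57), Ntf3 at -1.52 (SE 0.27), Artn at -1.43 (SE 0.32), and Gfra1 at -0.87 (SE 0.21). Ntrk3 overlapped between organs (log2 -0.37, SE 0.43). Without Ctrl bladder 785 the Bdnf difference was -0.93. Rescaling mattered here: on TPM as deposited the median of all genes tested was -0.24 instead of 0.01, and the members' values were about that much lower. Called were 6 of 8 lower and 1 of 8 higher in colon, beside 25.3% and 25.1% of 19773 genes, and the same numbers of members did not overlap, beside 36.8% lower and 21.0% higher of all genes tested. Gdnf passed the filter through colon and Ntrk2 through bladder, where each is high, so these had to differ. The fits of genotype and of organ share the Ctrl libraries.

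The order of levels differed accordingly. In Ctrl colon Ntf3 led at 4.38 ± 0.163 TPM (SD, n = 3), followed by Gfra1, Ngfr, Artn, Gdnf, Ntrk3, and Bdnf. From Gfra1 to Bdnf neighbors in this order overlapped. Ntrk2 came next, below Bdnf without overlap, and then Nrtn, which overlapped Ntrk2. In Y/T KO colon Bdnf was last at 0.228 ± 0.110 TPM, overlapping Ntrk2. In Ctrl bladder Ntf3, Ngfr, Bdnf, Artn, Ntrk2, and Gfra1 overlapped in turn, from 15.7 ± 4.65 TPM for Ntf3 to 6.71 ± 1.14 TPM for Gfra1, with Ntrk3 below them at 2.66 ± 1.82 TPM. In Y/T KO bladder Bdnf was in position 7 at 0.956 ± 0.258 TPM, below Ntrk3 and above Gdnf with no overlap on either side. In bladder Gfra1 was above Gdnf with no overlap, and Artn was the most abundant ligand of that family in both genotypes.

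Genes whose pattern was most like that of Bdnf or Gdnf were sought over the 12 libraries among 16298 genes, as the correlation of log2 values after the mean of each organ was removed. For Bdnf these were Ppp1r15a (r = 0.955), Zbtb32 (0.950), Tent5b (0.928), Ankrd1 (0.926), and Rgs4 (0.924). The 12 points share the library of mouse 785, which was highest for all 5 of them in Ctrl bladder. Ppp1r15a, a phosphatase subunit of the stress response, was at 52.2 TPM there and at 26.0 and 32.5 TPM in the other Ctrl bladders. Ankrd1, also on the list of YAP/TAZ targets, was at 2.43 to 4.60 TPM in the Ctrl colons and 0.128 to 0.342 TPM in the Y/T KO colons. In bladder Ankrd1 was at 6.35 to 125 TPM in the Ctrl group and 0.127 to 0.692 TPM in the Y/T KO group.

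Among the 5 nearest to Gdnf were Mal (r = 0.938), Nipal4 (0.934), Cdc42se2 (0.914), and Rgs5 (0.910). Mal, a lipid-raft protein of epithelia and myelin, was at 16.9 to 19.5 TPM in the Ctrl colons and 3.49 to 5.13 TPM in the Y/T KO colons, and at 235 to 318 TPM in the Ctrl group and 244 to 293 TPM in the Y/T KO bladders. Rgs5, a regulator of G-protein signaling in pericytes and smooth muscle, was at 82.4 to 95.1 TPM in the Ctrl colons and 41.4 to 62.5 TPM in the Y/T KO colons. In bladder it was at 214 to 237 TPM in the Ctrl group and 224 to 264 TPM in the Y/T KO group. Since these genes were picked for their likeness to Gdnf in the same libraries, that they share its split in colon follows from the choice.

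**Figure D4:**
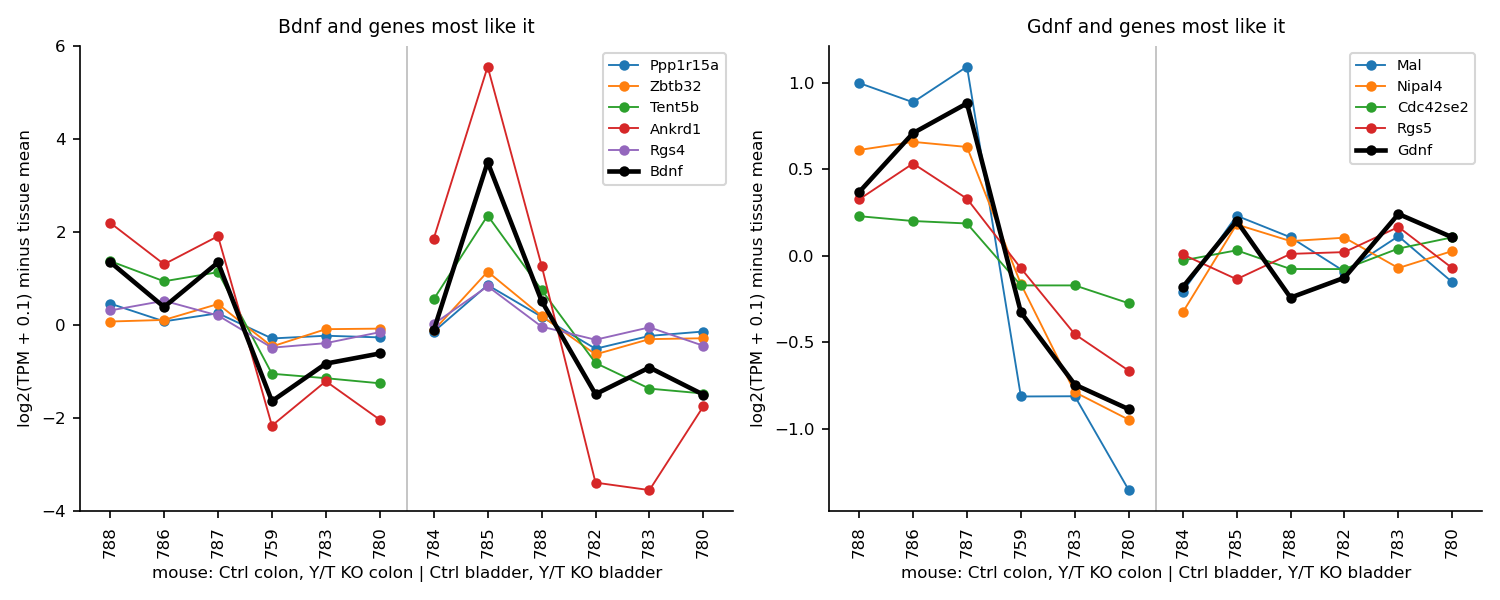
Bdnf (left, black) and Gdnf (right, black) with 5 and 4 of the genes most like each, as log2(TPM + 0.1) minus the mean of the organ, in the 12 libraries by mouse (lines join the points of a gene within an organ, and the order of mice carries no meaning). Mouse 785 was the highest point of Bdnf and of its 5 neighbors in bladder, and both patterns were shared by choice, since the genes were picked for likeness over these libraries.

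The wider pathway was followed in a list of 78 other genes, 17 of the same ligand and receptor families, 32 of processing and adaptor proteins, and 29 of other neurotrophic systems, chosen with earlier results of these libraries known. In colon 62 of the 78 were tested and 1 was called, lower in Y/T KO, where 0.0800% of all genes were called lower. When p was left unadjusted it was 3 lower and 5 higher, beside 4.59% and 5.14% of all genes. The called gene was Ptn, the gene of pleiotrophin, a heparin-binding growth factor for neurites. Ptn stood at 32.5, 33.3, and 32.5 TPM in the Ctrl colons and 14.6, 9.83, and 11.99 TPM in the Y/T KO colons (log2 -1.41, SE 0.18, limma adjusted p = 0.0487). The groups were far apart, yet its adjusted p ran from 0.00772 to 0.195 over 14 alternative settings, and it was lost on leaving out any colon library other than that of Y/T KO mouse 759. In bladder Ptn was at 24.7 to 32.2 TPM in the Ctrl group and 22.0 to 30.1 TPM in the Y/T KO group (log2 -0.10, SE 0.18, limma adjusted p = 0.830), and the interaction was -1.33 (SE 0.26, limma adjusted p = 0.117).

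In bladder 68 of the 78 were tested and 1 was called, again lower in Y/T KO, where 0.219% of all genes were called lower. When p was left unadjusted it was 7 lower and 5 higher, beside 8.20% and 6.64% of all genes. The called gene was Ptprz1, the receptor tyrosine phosphatase that binds pleiotrophin. Ptprz1 stood at 4.71, 9.37, and 6.55 TPM in the Ctrl bladders and 0.598, 0.711, and 0.675 TPM in the Y/T KO bladders (log2 -3.14, SE 0.30, limma adjusted p = 0.0166). Its adjusted p ran from 0.00706 to 0.103 over 14 settings, and it was lost on leaving out any bladder library other than that of Ctrl mouse 784. In colon Ptprz1 was at 1.93 to 2.70 TPM in the Ctrl group and 0.231 to 0.698 TPM in the Y/T KO group, without overlap (log2 -2.37, SE 0.43, limma adjusted p = 0.139). The interaction of Ptprz1 was 0.71 (SE 0.53, limma adjusted p = 0.609).

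Gfra2 and Gfra3, further co-receptors of the GDNF family, were not called between genotypes, and neither was Gfra1. Gfra2 was at 4.14 to 5.16 TPM in the Ctrl colons and 3.26 to 4.11 TPM in the Y/T KO colons. These values did not overlap (log2 -0.24, SE 0.22, limma adjusted p = 0.731). In bladder Gfra2 was at 13.8 to 17.6 TPM in the Ctrl group and 8.93 to 11.8 TPM in the Y/T KO group, without overlap (log2 -0.57, SE 0.16, limma adjusted p = 0.196). Gfra3 was at 2.13 to 2.46 TPM in the Ctrl colons and 2.63 to 3.43 TPM in the Y/T KO colons. It was thus higher in Y/T KO colon without overlap (log2 0.35, SE 0.24, limma adjusted p = 0.664). In bladder Gfra3 differed by 0.17 (SE 0.24, limma adjusted p = 0.767). The median log2 difference of the list was 0.05 in colon and -0.06 in bladder, beside 0.01 and 0.00 for all genes tested, and 0 of 70 were called in the interaction by limma, with 3 below 0 and 6 above when p was left unadjusted, beside 5.45% and 6.43% of all genes.

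**Figure D5:**
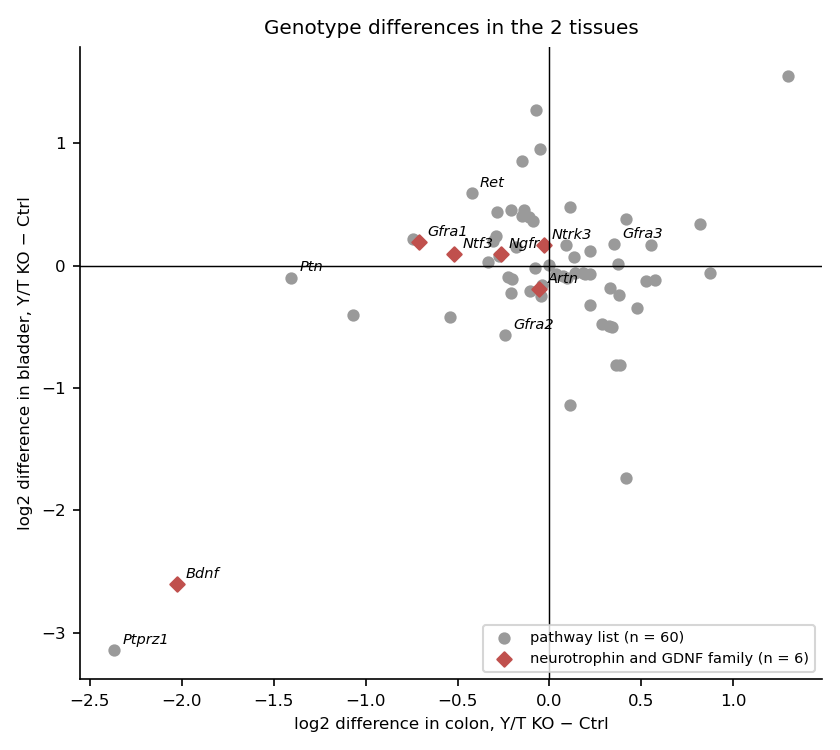
Fitted log2 difference, Y/T KO minus Ctrl, in colon (x axis) and bladder (y axis) of 60 pathway genes (gray circles) and 6 of the neurotrophin and GDNF family genes (red diamonds) that were tested in both organs. Bdnf (-2.03 and -2.60) and Ptprz1 (-2.37 and -3.14) lay apart from the rest at the lower left, and Ptn (-1.41 and -0.10) at the left.

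Between organs of Ctrl mice, 44 of 70 pathway genes tested were called, 32 lower and 12 higher in colon, beside 25.3% of all genes lower and 25.1% higher, with a median log2 difference of -0.57. The 10 with the smallest p fell into both directions. Lrig1, a membrane protein that restrains ErbB and Ret signaling, was higher in colon by 2.86 (SE 0.15, limma adjusted p = 4.38e-08), and so were the adaptor Dok4 (3.06, SE 0.22) and the neuregulin receptor Erbb3 (2.42, SE 0.22). Lower in colon were Cntfr, the receptor of ciliary neurotrophic factor (-4.60, SE 0.34, limma adjusted p = 7.39e-07), Mmp9, a protease that can process pro-neurotrophins (-4.28, SE 0.41), and Sdc3 (-1.76, SE 0.16), Shc2 (-1.58, SE 0.18), Plat (-1.50, SE 0.14), Ednrb (-1.29, SE 0.14), and Maged1 (-1.11, SE 0.11). Of the ligands and receptors of the families, Gfra2 (-1.53, SE 0.18, limma adjusted p = 2.57e-05) and Gfra3 (-1.51, SE 0.23, limma adjusted p = 0.000224) were lower in colon. Ntf5 (-1.66, SE 0.58, limma adjusted p = 0.0325) was lower too, with a limma adjusted p of 0.0175 to 0.110 over 14 settings, and it lost the call with pseudocounts of 0.5 and 1 TPM and without Ctrl colon 788, Ctrl colon 787, Ctrl bladder 785, or Ctrl bladder 788. Ret was not called (-0.49, SE 0.68, limma adjusted p = 0.582).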

How the data were processed

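RNA of 12 libraries (4 groups of 3) was sequenced after polyA selection with a stranded kit. Per the labels, bcl2fastq, FastQC, HISAT2, StringTie, and DESeq2 were run on GRCm38, with versions not given in the sources used here. The authors deposited for each library a StringTie table with coverage, FPKM (fragments per kilobase of transcript, scaled to mapped fragments), and TPM of each gene. Aligned bases were taken from the usual ratio of coverage to FPKM. Counts were not used here, so the depth behind each TPM is unknown.

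Rows were summed by gene ID. Of 54409 IDs shared with GENCODE M21, 53462 had the same position. Libraries were rescaled by the median of ratios, and genes reaching 0.5 TPM in 3 or more libraries entered the fits of log2(TPM + 0.1), made in R 4.3.3 by lmFit and a trended, robust eBayes of limma 3.58.1, with Benjamini-Hochberg adjustment over all genes tested and two-sided p-values called under 0.05. Genotype was fitted within an organ, and organ in Ctrl and the interaction over all 12 libraries. Means and SD are of TPM as deposited. The 3 mice that gave both organs pair the libraries. Correlations of their deviations were -0.0091, 0.0675, and 0.0437. The fits were tested on simulated data.

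The 9 members, the pathway list, and the marker lists were chosen with earlier results of these data known, so none of them is independent support. Named are the 9 members, the called genes of the pathway list (up to 10 per fit by smallest p), Ntf5, Pspn, Ret, Gfra2, and Gfra3, the 5 nearest patterns of Bdnf and of Gdnf, and up to 4 defining genes of a marker list and those at or near 0. Some genes that this rule names are not reported here. Figures used matplotlib 3.10.9 and pandas 2.3.3 under Python 3.11.15. Other pseudocounts, filters, and scalings, a block for the mouse, and each library left out were tried.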

Additional observations from a re-analysis of the deposited data

How the results depend on the processing

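Colon calls were the least stable. Of 24 genes called between genotypes in colon, 6 were called without the filter and 75 with all 12 libraries in one fit, and 5 to 63 on dropping any 1 library, the highest without Y/T KO mouse 759. Of the pathway list 1 gene was called in colon, 0 without the filter, 0 without the trend and robust options, 2 with all 12 libraries in one fit, and 0 to 2 with each library left out. In bladder 55 genes were called, 11 to 51 with each library left out (11 without Ctrl mouse 785 and 11 without Ctrl mouse 788), and of the pathway list 1 was called, 0 to 1 with each left out. The interaction called 12 genes, 19 with a pseudocount of 1 TPM, 22 without the trend and robust options, and 8 to 31 on dropping any 1 library (8 without Y/T KO colon 780 and without Y/T KO bladder 783, 31 without Y/T KO colon 759). Of the 5 genes most like Bdnf 3 stayed among the nearest 5 with a pseudocount of 1 TPM, and of the 5 most like Gdnf 3 did. With the mouse as a replicate block (consensus correlation 0.0516), 12 genes were called in the interaction and 10028 between Ctrl organs, instead of 9963. The members called numbered 0 in each organ's genotype fit under every setting run. With pseudocounts of 0.5 and 1 TPM the colon difference of Bdnf was -1.24 and -0.85, and that of Gdnf -0.98 and -0.76. In colon Bdnf fell below the filter when a Ctrl library was left out.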
